A study of Homo sapiens with 4 samples.

Results

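The chemokines and cytokines described here are 10 genes, *CX3CL1*, *CCL2*, *CCL20*, *CXCL1*, *CXCL2*, *CXCL3*, *IL8* (*CXCL8* in later annotation), *IL6*, *LIF* and *CSF1*, of the 63677 genes counted. They were chosen by their symbols, with the fold changes and calls of FLO-1LM against parental cells already known, so their values are given as a description without p-values. FLO-1 cells come from a long-used line of human esophageal adenocarcinoma. FLO-1LM is 1 subline, grown by the study from a macroscopic liver metastasis after FLO-1 had been passaged serially through NSG mice, which lack mature lymphocytes and natural killer cells. The data comprise 2 RNAseq libraries of FLO-1LM and 2 of FLO-1 parental cells, both grown in culture without treatment and harvested at 80% confluency, 24 hours after fresh medium. The labels do not say whether the libraries of a line were separate cultures, so that any p-value measures only the spread between these libraries, and no preparation batch is given that could be told apart from the line.

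Chemokines are small secreted proteins that draw leukocytes along a gradient by binding G protein-coupled receptors. CX3CL1 (fractalkine) is unusual in being made as a membrane protein on a mucin stalk, from which ADAM10 and ADAM17 can cut it. It attracts natural killer cells, cytotoxic T cells and monocytes that carry CX3CR1. CCL2 attracts monocytes through CCR2, CCL20 attracts lymphocytes and dendritic cells through CCR6, and CXCL1, CXCL2, CXCL3 and IL8 attract neutrophils through CXCR2 and, for IL8, CXCR1. IL6 and LIF signal through receptors that share the IL6ST (gp130) chain, and CSF1 keeps macrophages alive through CSF1R. Several of these genes are textbook targets of NF-κB, and many of their mRNAs carry AU-rich elements in the 3′ UTR that mark them for rapid decay.

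The promoters of the neutrophil chemokines and of *CCL20* are shown first because the same κB motif recurs in them. All of these genes had low levels in FLO-1, with mean counts per library from 2.5 for *CXCL1* to 54.5 for *CXCL2*. The more abundant *CCL2*, *CX3CL1*, *CSF1* and *LIF* had no promoter sequence to compare. Each line gives the 150 bases before the RefSeq start site (GRCh38.p14 table), 5′ to 3′ on the gene's strand, with the position on GRCh37 where it matched exactly. Capitals mark matches on either strand to the κB motif GGNNTTTCC, to the AP-1 motif TGANTCA and to TATAAA.
CXCL1 promoter, chr4:74734960-74735109, plus strand: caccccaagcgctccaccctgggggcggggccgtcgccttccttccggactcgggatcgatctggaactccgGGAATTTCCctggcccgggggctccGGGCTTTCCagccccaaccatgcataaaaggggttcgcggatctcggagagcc
CXCL2 promoter, chr4:74964913-74965062, minus strand: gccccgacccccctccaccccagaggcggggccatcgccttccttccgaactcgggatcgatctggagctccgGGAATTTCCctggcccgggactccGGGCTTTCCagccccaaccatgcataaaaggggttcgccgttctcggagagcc
CXCL3 promoter, chr4:74904407-74904556, minus strand: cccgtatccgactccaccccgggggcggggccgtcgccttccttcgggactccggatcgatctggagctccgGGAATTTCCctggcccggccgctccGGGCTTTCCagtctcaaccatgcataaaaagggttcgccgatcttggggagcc
IL8 promoter, chr4:74606136-74606285, plus strand: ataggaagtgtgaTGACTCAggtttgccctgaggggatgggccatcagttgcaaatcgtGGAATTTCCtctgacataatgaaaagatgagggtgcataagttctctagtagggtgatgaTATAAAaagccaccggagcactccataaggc
CCL20 promoter, chr2:228678408-228678557, plus strand: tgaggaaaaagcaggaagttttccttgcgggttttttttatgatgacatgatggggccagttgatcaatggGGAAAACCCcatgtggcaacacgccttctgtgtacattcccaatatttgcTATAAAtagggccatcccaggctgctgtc

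The table of promoters held 6 of the 10 genes, and all 6 (*CCL20*, *CXCL1*, *CXCL2*, *CXCL3*, *IL8* and *IL6*) had the κB motif within 250 bases of the start site. The κB motif was found in 5.48% of 27305 promoters of that length, in 4 of 23 promoters of other chemokines and in 3 of 36 of other cytokines. Other motifs sought were present in fewer of the 6. The AP-1 motif was in 1 (6.6% of all promoters) and TATAAA in 2 (11.1%). The C/EBP motif TTNNGCAA was in 2, *CXCL2* and *IL6* (9.13%), outside the windows shown. *CXCL1*, *CXCL2* and *CXCL3* each had 2 matches, GGAATTTCC at 77 or 78 bases and GGGCTTTCC at 53 bases before the start. Their 150-base windows were 86.1% to 88.7% identical to each other and 43.6% to 45.1% identical to that of *IL8*. *IL8* had GGAATTTCC once, with TGACTCA upstream of it and TATAAA downstream. *CCL20* had its match on the opposite strand. Only exact matches to these patterns were counted, so that a site departing from its pattern was missed. These matches are a description of the sequence and not of binding.

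The 10 genes spanned a wide range of levels in these cells, and in both lines nearly all of their counts belonged to *CCL2*, *CX3CL1* and *CSF1*. *CCL2* made up 71.6% and 69.2% of the summed counts of the 10 genes in FLO-1LM and 57% and 55.1% in parental cells. *CX3CL1* made up 16% and 16.3% in FLO-1LM and 28.1% and 31.4% in parental cells. The summed level of all 10 genes was 649.8 and 558.6 CPM (read counts divided by TMM-scaled library sizes and put on a common scale) in FLO-1LM, and 620.9 and 607.8 in parental cells. The sums of the lines thus overlapped, while the share of *CX3CL1* was lower and that of *CCL2* higher in both FLO-1LM libraries. These shares are parts of the same sum, so that a lower share of one gene raises those of the others. Total counts ran from 19060310 to 25920336 per library, so that 3 counts, the level below which a gene was regarded as not measurable, correspond to 0.117 to 0.156 CPM.

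Per kilobase of exon, the mean level over the 4 libraries was highest for *CCL2* at 199 CPM per kilobase, followed by *CX3CL1* at 23.5, *CSF1* at 12.2, *LIF* at 4.15, *CXCL2* at 1.73 and *CCL20* at 0.64. With the union of exons as the length, no library of one of these 6 genes overlapped any library of its neighbor in this order. As a ratio, the narrowest gap was between *CX3CL1* in FLO-1LM, at 17.5 and 15.3 CPM per kilobase, and *CSF1*, which reached 14.2 in parental cells. *CXCL1*, *IL8*, *CXCL3* and *IL6* had means of 0.0818, 0.0566, 0.0563 and 0.00262 CPM per kilobase, and their libraries overlapped. The order of the first 6 was the same when the longest transcript was used as the length, and *IL8* and *CXCL3* exchanged places. These last 4 means rest on counts near the limit of 3, so that their order carries no information. *CXCL2*, whose promoter is nearly like those of *CXCL1* and *CXCL3* in the window shown, was the only one of these copies with enough counts to be tested.

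**Figure D1:**
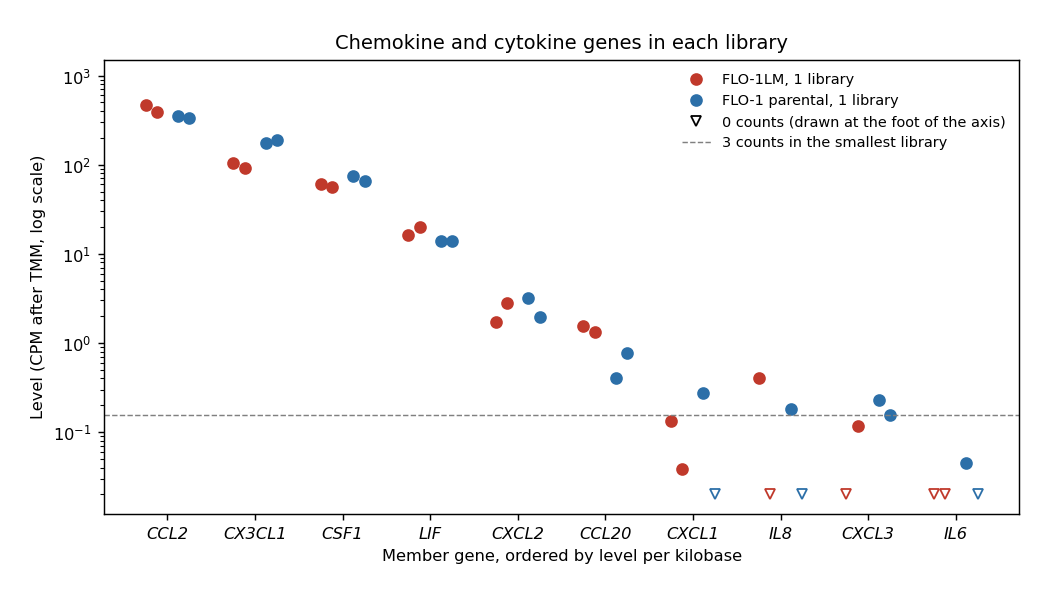
Level of each gene in each library, in CPM after TMM scaling on a log axis; red points are the 2 FLO-1LM libraries, blue points the 2 parental libraries, open triangles libraries with 0 counts, and the dashed line is 3 counts in the smallest library. *CX3CL1* lies between 91.3 and 104 CPM in FLO-1LM and between 174.6 and 190.7 in parental cells, while *CXCL1*, *IL8*, *CXCL3* and *IL6* lie at or near the line.

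*CX3CL1* (ENSG00000006210, chr16:57406389-57418956, plus strand, GRCh37) was the 1 gene of the 10 that passed the test. It had 2318 and 2351 counts in the FLO-1LM libraries and 3848 and 3656 in the parental libraries, or 104 and 91.3 against 174.6 and 190.7 CPM. Both FLO-1LM libraries were well below both parental libraries. The mean fell from 182.6 ± 11.4 CPM (SD, n = 2) in parental cells to 97.7 ± 9.0 (SD, n = 2) in FLO-1LM, a log2 fold change of -0.90 with a standard error of 0.085 and a 95% interval of -1.08 to -0.72, or 1.87-fold lower. By edgeR it was 14th of 17143 genes in order of p, a rank that was part of what was known when the gene was chosen. Of all genes tested, 2.23% were called in either direction, 1.83% lower and 0.402% higher in FLO-1LM. These shares are the background for each count of called genes given below. In total RNA from a culture, a smaller share of cells that express *CX3CL1* and less mRNA in each cell cannot be told apart. No annotated gene overlaps *CX3CL1*, and leaving out any one library kept its call.

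*CCL2* (ENSG00000108691, chr17:32582293-32584227, plus strand) was the most abundant of the 10. It had 10362 and 9956 counts in FLO-1LM and 7800 and 6419 in parental cells, or 465.1 and 386.7 against 353.8 and 334.8 CPM. Both FLO-1LM libraries were higher than both parental libraries, by a log2 fold change of 0.31 (standard error 0.083, 95% interval 0.13 to 0.48). *CCL2* was not called, at rank 439 in order of p where 382 genes were called. The 2 FLO-1LM libraries differed from each other by 1.20-fold, and only 3.77% of 849 genes with a like count differed by more between these libraries. The parental libraries differed by 1.06-fold. Without FLO-1LM replicate 1 the log2 fold change was 0.17, and without FLO-1LM replicate 2 it was 0.43 and was called. DESeq2 on the same libraries also called it, at 0.31, as did edgeR without a filter on low counts. Limma voom did not call it here, at 0.30, whereas the study, which used voom, reported *CCL2* as significantly upregulated in FLO-1LM.

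*CSF1* (ENSG00000184371, chr1:110452864-110473614, plus strand), the macrophage growth factor, had 60.4 and 56.5 CPM in FLO-1LM and 74.2 and 65.5 in parental cells. The lines did not overlap, the log2 fold change was -0.26 (standard error 0.094, 95% interval -0.45 to -0.06), and the gene was not called. *LIF* (ENSG00000128342, chr22:30636442-30642748, minus strand), a cytokine of the IL6 family, had 16.4 and 19.8 CPM in FLO-1LM and 14.06 and 13.98 in parental cells. Its log2 fold change was 0.37 (standard error 0.15, 95% interval 0.05 to 0.69), also without a call. The parental libraries were nearly equal, and one FLO-1LM library stood 1.21-fold above the other. Both genes were called once, without FLO-1LM replicate 1, at -0.31 and 0.50. The antisense gene *LIF-AS2* overlaps *LIF* and had 12 and 28 counts in FLO-1LM and 21 and 7 in parental cells against 268 to 510 counts of *LIF*, and whether strand was used in counting is not stated.

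*CCL20* (ENSG00000115009, chr2:228670455-228682280, plus strand) had 35 and 34 counts in FLO-1LM and 9 and 15 in parental cells, or 1.57 and 1.32 against 0.408 and 0.782 CPM. Both FLO-1LM libraries were above both parental libraries. With so few counts the log2 fold change of 1.28 had a standard error of 0.59 and an interval of 0.04 to 2.53, and *CCL20* was not called in any alternative. *CXCL2* (ENSG00000081041, chr4:74962757-74964913, minus strand) had 38 and 72 counts in FLO-1LM and 70 and 38 in parental cells. One library of each line was high and the other low, and the lines overlapped almost fully. Its log2 fold change was -0.20 with an interval of -1 to 0.61. The libraries differed by 1.64-fold within FLO-1LM and by 1.60-fold within parental cells. The 95% intervals that counting error gives for these log2 ratios were -1.32 to -0.13 and 0.09 to 1.29, and neither included equal levels. Of 2748 genes with a like count, 23.9% differed by more within FLO-1LM and 13.1% within parental cells. The interval of the fold change between the lines, -1 to 0.61, included no change, so that neither a rise nor a fall could be read at this depth.

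The remaining 4 genes had too few counts to be tested. *CXCL1* (ENSG00000163739, chr4:74735110-74737025) had 3 and 1 counts in FLO-1LM and 6 and 0 in parental cells. *CXCL3* (ENSG00000163734, chr4:74902306-74904524) had 0 and 3, and 5 and 3. *IL8* (ENSG00000169429, chr4:74606236-74609433) had 9 and 0, and 4 and 0, so that each line held one library with a few counts and one with none. *IL6* (ENSG00000136244, chr7:22765503-22771621) had a single count, in 1 parental library. These counts lie around the limit that 3 counts set, and neither a level nor a difference can be read from them. Thus 6 of the 10 genes were tested, and 1 was called lower and 0 higher, beside 1.83% and 0.402% over all genes. Of the 6 log2 fold changes 3 were negative and 3 positive, with a median of 0.06 beside 0.0016 over all genes tested.

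**Figure D2:**
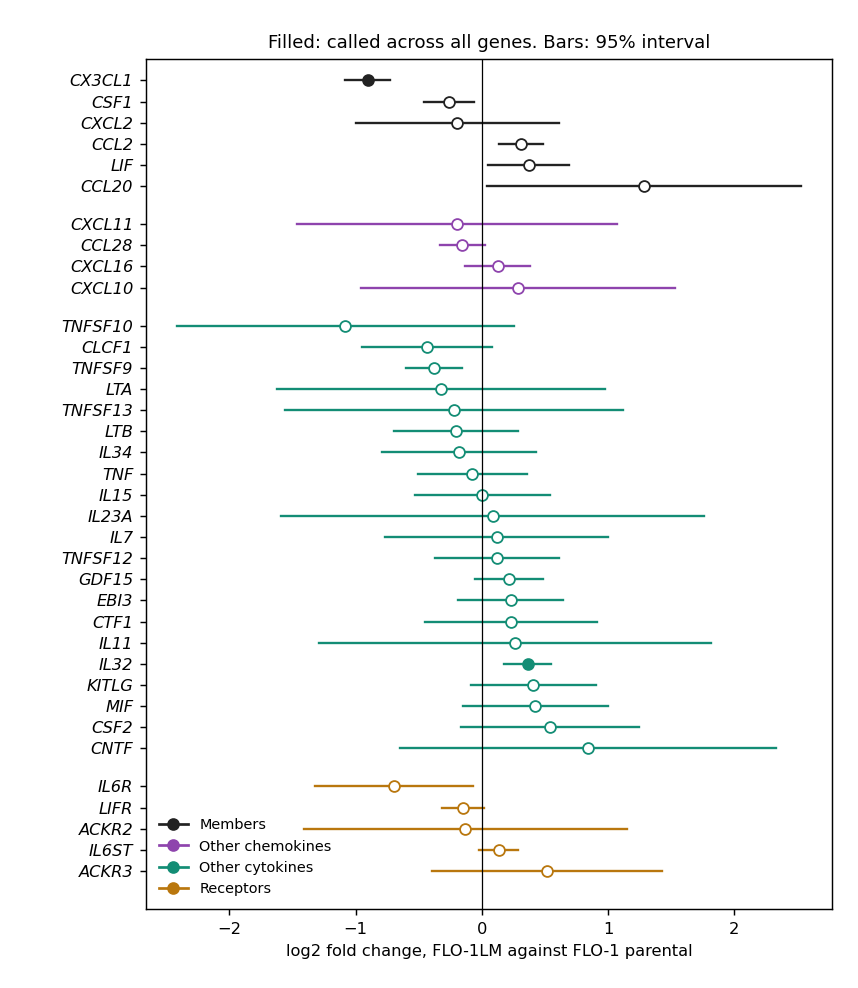
Log2 fold change of FLO-1LM against FLO-1 parental for the tested genes among the 10, the other chemokines, the other cytokines and the receptors; points are edgeR estimates, bars 95% intervals, and filled points were called across all genes tested. *CX3CL1* at -0.90 and *IL32* at 0.36 are filled, and the other genes, among them *CCL2* at 0.31, are open.

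*CXCL1*, *CXCL2* and *CXCL3* are recent copies of one gene on chromosome 4, which bears on how well their reads can be told apart. Their coding sequences are each 324 bases long and 90.7% to 94.4% identical. The most alike stretch of 90 coding bases, counted from base 145 to base 234 of the GENCODE coding sequence, is given below, with the 4 positions at which any of the genes differs in capitals.
CXCL1 coding window: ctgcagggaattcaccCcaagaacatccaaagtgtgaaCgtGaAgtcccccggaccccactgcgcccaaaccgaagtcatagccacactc
CXCL2 coding window: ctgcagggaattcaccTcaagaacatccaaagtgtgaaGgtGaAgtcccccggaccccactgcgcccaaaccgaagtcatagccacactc
CXCL3 coding window: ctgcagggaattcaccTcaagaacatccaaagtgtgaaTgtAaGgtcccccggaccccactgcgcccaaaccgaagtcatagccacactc

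Over the whole transcripts the likeness was smaller. The longest run shared exactly was 97 bases, between *CXCL2* and *CXCL3*, and 10.1% of all 50-base windows of *CXCL2* occurred in one of the other copies, against 5.33% for *CXCL1* and 5.26% for *CXCL3*. The treatment of reads with several matches is not given in the sources used here, and the low counts of *CXCL1* and *CXCL3* are uncertain to that extent.

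The receptors through which most of these ligands act were not detected in the tumor cells. *CX3CR1*, *CCR6*, *CXCR1*, *CXCR2* and *CSF1R*, and the scavenging receptors *ACKR1* and *GPR182*, had 0 counts in all 4 libraries, which allows up to 0.117 to 0.156 CPM in a library. *CCR2*, the receptor of CCL2, had 3 and 0 counts in FLO-1LM and 0 and 1 in parental cells. *ACKR4* had 0 and 0, and 1 and 5 counts, and *CCRL2*, which binds chemoattractants without signaling, had 4 counts in 1 parental library. *CSF1*, *CX3CL1* and *CCL2*, the most abundant ligands, thus had no receptor of their own above the limit of 3 counts, apart from the atypical receptor *ACKR2*, which binds and degrades CCL2 and had 16 to 22 counts.

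The receptor chains of LIF were the exception. *IL6ST*, the shared signaling chain, had 671.2 and 597.9 CPM in FLO-1LM and 596.3 and 560.4 in parental cells. *LIFR*, which pairs with it, had 108.7 and 106.2 against 122.5 and 116 CPM. Per kilobase the mean levels were 50.3 for *IL6ST*, 9.32 for *LIFR* and 4.15 for *LIF*, so that the ligand and both chains of its receptor were present in every library. *IL6R*, the chain specific to IL6, had 58 and 131 counts in FLO-1LM and 161 and 100 in parental cells, a log2 fold change of -0.70 (standard error 0.30). The FLO-1LM libraries of *IL6R* differed 1.96-fold from each other, and only 4.55% of 2856 genes with a like count differed by more. Without FLO-1LM replicate 2 *IL6R* stood at -1.27 and was called, and without FLO-1LM replicate 1 it was not. *ACKR3*, an atypical receptor for CXCL11 and CXCL12, had 52 and 48 counts against 40 and 21. Of the 15 receptors 5 were tested, and 0 were called by edgeR, 0 by DESeq2 and 0 by limma voom, with 1 (*IL6R*, adjusted p = 0.336 by edgeR's quasi-likelihood test) at an unadjusted p under 0.05.

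**Figure D3:**
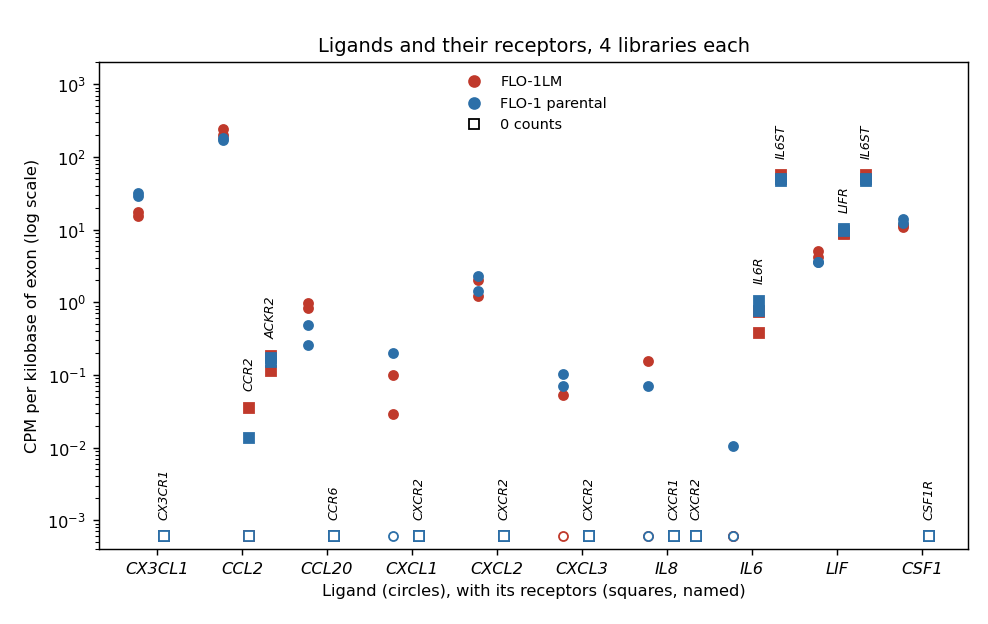
Level per kilobase of exon, in CPM per kilobase on a log axis, of each ligand (circles) and its receptors (squares, named) in the FLO-1LM (red) and parental (blue) libraries; open symbols at the foot mark 0 counts. *LIF*, *LIFR* and *IL6ST* are all present, at means of 4.15, 9.32 and 50.3, while *CX3CR1*, *CCR6*, *CXCR1*, *CXCR2* and *CSF1R* are at 0 in every library.

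The membrane-bound form of CX3CL1 is released by the proteases ADAM10 and ADAM17, whose mRNAs were not called between the lines. The group of 7 genes held these proteases, the ADAM17 cofactors *RHBDF1* and *RHBDF2*, and the protease inhibitors *TIMP1*, *TIMP2* and *TIMP3*. All 7 were tested, and 0 were called by edgeR, DESeq2 or voom, with 0 at an unadjusted p under 0.05. *ADAM10*, the constitutive sheddase, had 199.7 and 185.9 CPM in FLO-1LM and 197.7 and 183.1 in parental cells. *ADAM17*, the inducible sheddase, had 74.9 and 82.3 against 80.9 and 79. The 95% intervals of their log2 fold changes were -0.14 to 0.18 and -0.21 to 0.16. The log2 fold changes of the group lay between -0.20 and 0.17, with a median of 0.02. The activity of these proteases was not measured.

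Among the other chemokines, 33 of 40 genes could be matched to the files, 14 had a count in any library and 4 were tested. *CCL5* was listed at 0 under an identifier that may differ between the annotations, and is not read as absent. None was called by edgeR, DESeq2 or voom, and 0 had an unadjusted p under 0.05. *CCL28*, a mucosal chemokine, had 84.3 and 77.3 CPM in FLO-1LM against 87.5 and 92.6 in parental cells. *CXCL16*, the only other chemokine made as a membrane protein with a mucin stalk, had 36 and 29.6 against 28.2 and 31.8 CPM, and its log2 fold change was 0.13 with a 95% interval of -0.13 to 0.38. The interferon-induced *CXCL10* and *CXCL11* had 14 to 41 counts, and in FLO-1LM one library had 2.79-fold and 2.81-fold the level of the other. *CCL7*, the neighbor of *CCL2* in the same gene cluster, had 33 and 9 counts in FLO-1LM and 8 and 5 in parental cells, and was not tested.

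Of 48 other cytokines and growth factors for blood cells, 36 had a count and 21 were tested. In this group 1 gene was called, higher in FLO-1LM, beside 0.402% called higher over all genes. *IL32*, a cytokine that induces other inflammatory cytokines, rose from 60.8 and 57.7 CPM in parental cells to 73.9 and 78.4 in FLO-1LM (log2 fold change 0.36, standard error 0.089, adjusted p = 0.0362 by edgeR's quasi-likelihood test). The size of this difference was close to those of *LIF* and *CCL2*, at 0.37 and 0.31. No gene of the group was called lower, 2 had an unadjusted p under 0.05, and DESeq2 and voom each called 1. The call of *IL32* was lost without either parental library, where 0 genes of the group were called, and with library totals alone (0.33). *TNFSF9*, the ligand of the T cell costimulator 4-1BB, had 38.3 and 33.8 CPM in FLO-1LM and 44.9 and 48.9 in parental cells, a log2 fold change of -0.38 that was not called (adjusted p = 0.0759 by edgeR's quasi-likelihood test). It was called with library totals alone (-0.41), with no filter on low counts (-0.38) and without FLO-1LM replicate 1 (-0.47). *TNF*, a common inducer of several of the 10 genes, had 8.3 and 6.72 CPM in FLO-1LM and 7.89 and 7.93 in parental cells.

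Among the transcription factors known to act on these genes, *CEBPB* and *EGR1* were lower in FLO-1LM. Of 29 factors and inhibitors 27 were tested, and *IKBKE* and *IKBKG* were listed at 0, which may reflect a change of identifier between the annotations and is not read as absence. Of the 27, 18 had a negative and 9 a positive log2 fold change, from -0.87 to 0.13 with a median of -0.06, and 2 were called lower and 0 higher, beside 1.83% and 0.402% over all genes, with 5 at an unadjusted p under 0.05, and DESeq2 and voom each called 2. *CEBPB*, a factor for *IL6* and other acute phase genes, fell from 54.9 and 64.5 CPM in parental cells to 29.7 and 35.5 in FLO-1LM (log2 fold change -0.87, standard error 0.11, adjusted p = 0.00014 by edgeR's quasi-likelihood test). *EGR1*, an immediate early factor, fell from 25.9 and 25.3 to 18.3 and 15.2 CPM (log2 fold change -0.62, standard error 0.14, adjusted p = 0.0209 by edgeR's same test), and lost the call without either parental library, while *CEBPB* was called in all 11 alternatives. The remaining genes with an unadjusted p under 0.05, named after their values were seen, were also lower in FLO-1LM and were not called. They were *CEBPD* at -0.39 (95% interval -0.61 to -0.17), *NFKBIZ* at -0.37 (-0.61 to -0.13) and *TNIP1* at -0.27 (-0.43 to -0.11). *RELA*, the main activating subunit of NF-κB, had 107.6 and 96.6 CPM in FLO-1LM and 99.2 and 104.8 in parental cells. The 95% interval of its log2 fold change was -0.18 to 0.18. *NFKBIA*, the inhibitor that NF-κB itself induces, had 151.1 and 136.2 against 154.1 and 153.9 CPM. The nuclear amount of these proteins was not measured, and the mRNA levels do not speak to it. Without normalization beyond library totals, 4 genes of the group were called.

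Of the 14 genes that carry or restrain the signals of IL6 and LIF, all were tested. Among them 1 was called, lower in FLO-1LM, beside 1.83% called lower over all genes. *SOCS1*, a feedback inhibitor of the JAK kinases, fell from 6.9 and 7.62 CPM in parental cells to 4 and 2.68 in FLO-1LM (log2 fold change -1.12, standard error 0.26, adjusted p = 0.0249 by edgeR's quasi-likelihood test), and it lost the call without either parental library. *SOCS3*, the feedback inhibitor that IL6 and LIF induce through STAT3, had 60.4 and 65 CPM in FLO-1LM and 53.4 and 52.4 in parental cells, a log2 fold change of 0.24 that was not called. *STAT3* itself had 720.1 and 748 against 753.6 and 743.8 CPM. In this group 3 genes had an unadjusted p under 0.05, and DESeq2 and voom each called 1.

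AU-rich elements divided the 10 genes along the same line as their levels. Counted as AUUUA on the sense strand, overlaps included, *IL6* had 14.1 per kilobase of 3′ UTR, *CXCL2* 14, *CXCL3* 10.4, *CXCL1* 7.77, *IL8* 7.19 and *CCL20* 6.34. *CCL2* had 2.66, *LIF* 2.19, *CSF1* 1.86 and *CX3CL1* 0.994, beside a median of 1.67 over 18028 genes. The 4 genes under 5 per kilobase were the 4 with the highest levels, from 4.15 to 199 CPM per kilobase, and the 6 above it lay at 1.73 or below. This split was noticed after the values had been seen. *CXCL1*, *CXCL3*, *IL8* and *IL6* enter it with counts near the limit of 3, and the order among them carries no information. Spearman's rho between density and level, with these 4 included, was -0.79 over the 10 genes, whose values come from the same libraries and include 3 near copies, and -0.00 over 48 other chemokines and cytokines with a count. In that second set the 11 genes above 5 per kilobase had a median of 0.127 and the 37 others a median of 0.342 CPM per kilobase. The 11 reached 13.6 CPM per kilobase, for *GDF15* with 20.7 AUUUA per kilobase, so the split at 5 did not hold there. Over 14146 genes with a count rho was 0.01. Their medians went the other way, at 5.09 CPM per kilobase above 5 AUUUA per kilobase and 4.25 for the rest. The longer element UUAUUUAUU was present in 6 of the 10 genes and in 8.96% of all genes, and those 6 included *CX3CL1* and *LIF*.

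The mRNAs of proteins that act on AU-rich mRNAs were not called between the lines, and the proteins were not measured. All 15 genes of this group were tested, and 0 were called by edgeR, DESeq2 or voom, with 1 at an unadjusted p under 0.05. *ZFP36* (tristetraprolin), which binds AUUUA elements and recruits the deadenylation complex, had 105.6 and 95.5 CPM in FLO-1LM and 96 and 85.1 in parental cells, a log2 fold change of 0.15 with a 95% interval of -0.04 to 0.34. The log2 fold changes of the group lay between -0.28 for *ZC3H12A* (95% interval -0.59 to 0.04) and 0.27 for *CNOT7*. *CNOT7* was the gene with an unadjusted p under 0.05, and its 95% interval was 0.09 to 0.44.

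The genes next to the 10 on their chromosomes were examined for a shared change. Within 250 kilobases 38 genes were tested, among them *CXCL2* as a neighbor of *CXCL1* and *CXCL3*. Of these 0 were called by edgeR, beside 2.23% over all genes, and 0 by DESeq2 or voom, with 1 at an unadjusted p under 0.05. Around *CX3CL1* there were 11 such genes by the gap between gene bodies, with log2 fold changes from -0.38 to 0.30 and a median of 0.04. *CX3CL1* at -0.90 lay outside their range, but it was chosen with its fold change known and they were not. Up to 1000 kilobases from *CX3CL1* 37 genes were tested, 0 were called by edgeR, DESeq2 or voom, and 2 had an unadjusted p under 0.05. *CCL2* had 1 tested gene within 250 kilobases, at 0.01.

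**Figure D4:**
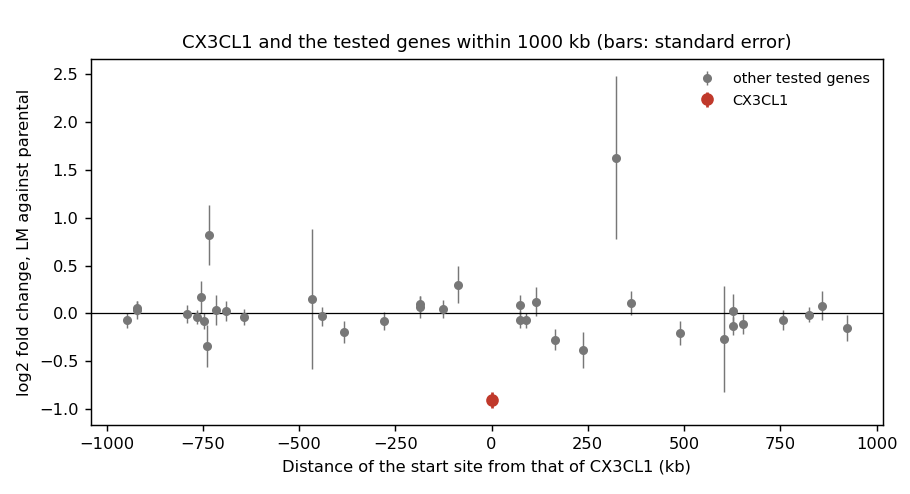
Log2 fold change of *CX3CL1* (red) and of the 37 other tested genes within 1000 kilobases (grey) against the distance of their start sites from that of *CX3CL1*, in kilobases; bars are standard errors. *CX3CL1*, chosen with its fold change known, is the lowest point at -0.90. The 11 genes whose bodies lie within 250 kilobases of it, which may start farther away, are between -0.38 and 0.30.

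Genes with the pattern most like those of *CX3CL1* and *CCL2* over the 4 libraries were sought by the distance between their deviations in log2 CPM, among protein-coding genes tested. Nearest to *CX3CL1* were *DLK1*, with 35 and 37 counts in FLO-1LM and 55 and 56 in parental cells, *SPDYA* with 12 and 12, and 24 and 21, and *ZBTB32* with 40 and 36, and 67 and 59. None of these was called, and all had far fewer counts than *CX3CL1*. Nearest to *CCL2* were *MCPH1* with 565 and 553, and 438 and 360 counts, *PSMA2* with 514 and 483, and 383 and 323, and *TMEM41A* with 588 and 576, and 455 and 362. With 4 libraries many genes lie close in such a measure, and the likeness is a description only.

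Markers of cell identity were read beside these results. Reads were counted on human genes only, so that these markers do not assess cells of the mouse host. The epithelial keratins *KRT8* and *KRT18* had 283.2 and 262.8, and 182.6 and 186.1 CPM in FLO-1LM against 434 and 452.9, and 294.6 and 288.1 in parental cells, and *EPCAM* had 3 to 12 counts. Of 9 epithelial markers tested 7 had a negative and 2 a positive log2 fold change (*KRT7* at 0.64 and *CLDN7* at 0.48). Of these 5 were called lower and 0 called higher, beside 1.83% and 0.402% over all genes. The called markers were *CDH1* (E-cadherin) at -2.21 (adjusted p = 1.1e-09 by edgeR's quasi-likelihood test), *KRT19* at -1.31, *CLDN4* at -1.07, *KRT8* at -0.70 and *KRT18* at -0.66. *CLDN4* lost its call without FLO-1 parental replicate 1 (-0.97). The summed level of all 10 epithelial markers was 536.3 and 518.3 CPM in FLO-1LM and 901.3 and 910.5 in parental cells. Most of it was *KRT8* and *KRT18*. The sum moved with *CX3CL1*, and its part in that result was not tested. Leukocyte markers summed to 2.47 and 3.46 against 3.31 and 3.34 CPM, with *PTPRC* (CD45) at 0 in every library. Endothelial markers summed to 30.2 and 24.7 against 26.5 and 33.7 CPM, nearly all of it *CLDN5*, with *KDR* at 0. Fibroblast markers summed to 14.4 and 12.5 against 13.8 and 11 CPM, with *COL3A1* and *DCN* at 0, and hepatocyte markers to 14.8 and 13.5 against 18.1 and 16.4 CPM, nearly all of it *SERPINA1*, with *ALB* at 0. Of the tested markers of these 4 cell types, 0 were called by edgeR, DESeq2 or voom, and 0 had an unadjusted p under 0.05. Counts on mitochondrial genes were 9.96% and 9.57% in FLO-1LM and 7.93% and 8.31% in parental cells, and without these genes *CX3CL1* kept its call.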

How the data were processed

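Gene expression was measured by RNAseq in 2 FLO-1LM and 2 FLO-1 parental libraries, grouped by the cell line in the sample labels. Per the labels, the authors made directional libraries, and their processing notes name bcl2fastq 2.17 and Trimmomatic 0.30. The deposited values are raw read counts per Ensembl gene on GRCh37, without normalization. The authors mapped trimmed reads with a short read aligner at a default mismatch rate, per the study's methods. The aligner's name, the counting program, the strand setting and the handling of multiply matching reads are not given in the sources used here.

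The members and gene lists were chosen with earlier results of these data known. With filterByExpr, set at a minimum count of 10 and a total of at least 15, 17143 genes were kept. After TMM scaling the lines were compared with edgeR 4.0.16 (estimateDisp, glmQLFit and glmQLFTest, R 4.3.3). P-values were adjusted by the Benjamini-Hochberg method over all genes tested, and a gene was called at an adjusted p below 0.05. Standard errors were derived from the fold change and the F statistic of its test. The script was tested on simulated data. Depth was 19060310 to 25920336 counts per library. Intervals of ratios between the libraries of a line, and limits on counts, cover counting error only. Intervals of fold changes between the lines came from the edgeR fit and include the spread between libraries.

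Positions, lengths and 3′ UTRs came from GENCODE v44 lifted to GRCh37, a later annotation than that of the counts. The chemokines *CCL3*, *CCL4*, *CCL14*, *CCL15*, *CCL16*, *CCL18* and *CCL23*, and *PECAM1*, were not matched by identifier and are not analysed here. AUUUA was counted in 3′ UTRs of at least 100 bases, and motifs in the 250 bases before RefSeq start sites. Named genes are every member, the called genes of each list (up to 5 by p), the receptors with their counts, called neighbors within 250 kilobases, the 3 protein-coding genes nearest in pattern to *CX3CL1* and *CCL2* (log2 CPM with a prior count of 2), and *CDH1*, *RELA*, *NFKBIA* and *ZFP36*. Other genes named as examples, such as *ADAM10*, *ADAM17*, *CCL28*, *CXCL16*, *CXCL10*, *CXCL11*, *CCL7*, *TNF*, *TNFSF9*, *STAT3*, *SOCS3* and the markers that were not called, were chosen after their values had been seen. Alternatives were DESeq2 1.42.0, RLE factors, library totals only, no filter, a stricter one (10 or more counts throughout), voom in limma 3.58.1, mitochondrial genes left out, and each library left out in turn. Protein sequences were not used here.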

Additional observations from a re-analysis of the deposited data

How the results depend on the processing

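*CX3CL1* was called under all 11 alternatives, with log2 fold changes of -1.0 to -0.81, and *CCL2* under 3 of 11, with 0.17 to 0.43. Without one library at a time, each fit took its spread from the one line that still had 2 libraries and assumed the lone library to vary alike. In these fits the count of all genes called ran from 116 to 1052 beside 382, with 967 or more without an FLO-1LM library and 139 or fewer without a parental one. The members called ran from 1 to 3, the other cytokines from 0 to 3, the receptors from 0 to 1 (1 without FLO-1LM replicate 2), the signal transducers from 0 to 2, the transcription factors from 1 to 5 and the decay regulators from 0 to 1 (1 without FLO-1LM replicate 1). The log2 fold change of *CXCL2* ran from -0.60 to 0.19 and turned positive without FLO-1LM replicate 1 (0.11) and without FLO-1 parental replicate 1 (0.19), and was not called in either. *ACKR2* ran from -0.49 to 0.17, and *RELA* from -0.079 to 0.079, in such fits. *RELA* was also negative with library totals (-0.030), the stricter filter (-0.0047), voom (-0.0012) and mitochondrial genes left out (-0.00024), beside 0.0012, and neither gene was called. With no filter on low counts, 577 of all genes, 2 members (*CX3CL1* and *CCL2*), 2 other cytokines and 4 transcription factors were called. DESeq2 called 2 members, and library totals alone gave 4 transcription factors. Of the 157 genes within 1000 kilobases of a member, which include *CXCL2*, 2 were called, both lower, beside 1.83% called lower over all genes. Both were long noncoding RNAs with few counts, ENSG00000269987 near *LIF* and ENSG00000228703 near *CSF1*, which were singled out after their values were seen. The cause of these shifts was not tested. The other chemokines and the sheddases had 0 calls under every alternative run. *CCL20* has no value under the stricter filter, which asked for 10 counts throughout. Replicate numbers were given in accession order and do not pair libraries. At this depth a gene with about 20 counts, such as *CCL20*, had a standard error of 0.59, and *CCL2*, with 6419 or more, one of 0.083.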
